A study of Mus musculus with 18 samples.

Results

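H3K27ac and H3K9me3 were compared between WT and Kap1 KO mouse embryonic fibroblasts (MEFs) at 10 genes of the fibroblast lineage, namely Twist1, Twist2, Prrx1, Prrx2, Thy1, Pdgfra, Pdgfrb, Snai2, Tbx15 and Tcf21. The genes were taken by name from the 22367 protein-coding genes of the mm9 annotation, and all 10 were found. Each gene was examined over its body and 20 kb on both sides, here called its window. H3K27ac is a histone mark of active promoters and enhancers, and H3K9me3 is a mark linked to repressed chromatin. The corepressor KAP1 can bring about H3K9me3 through the methyltransferase SETDB1, but not every H3K9me3 peak depends on KAP1. Peak lists of 6 of the 18 samples were used, with 1 library per condition, so that no spread between libraries could be measured and no test between genotypes was made. The WT MEFs were of the C57BL/6 background, of embryonic origin and homozygous for a loxP allele of Kap1. The Kap1 KO MEFs had the same background and origin and lacked Kap1. KAP1 and SETDB1 were mapped in Hepa 1.6, a hepatoma line from a C57L mouse that was wild type for Kap1. KAP1 peaks of MEFs were not analysed here. For RNA-seq, the Kap1 KO MEFs came from 1 long-cultured clone, grown beside the cells in which Kap1 had not been excised. Whether the same clone served for ChIP-seq is not given in the sources used here, and a difference between clones cannot be told apart from one between genotypes.

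The 36275 WT and 36436 Kap1 KO H3K27ac peaks had median widths of 1985 bp and 1927 bp. The score that comes with each peak has a ceiling at 3100, which 28.1% of the WT and 21.9% of the Kap1 KO peaks reached. Scores were therefore read as ranks within a list. Because these shares differ, ranks below the ceiling are not on the same scale in both lists. The H3K9me3 lists held 14425 peaks in WT and 4319 in Kap1 KO. Over the genome, the bases under H3K27ac peaks in Kap1 KO were 0.982-fold those in WT, and over the 20 chromosomes this ratio ranged from 0.796 to 1.51. The number of reads behind a peak is unknown here, and peaks do not show whether Kap1 was deleted.

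Fibroblasts descend from mesenchyme, and a small set of transcription factors marks that origin. TWIST1 and TWIST2 are basic helix-loop-helix factors that bind E-boxes together with E proteins, and TCF21 belongs to the same class and marks the mesenchyme of visceral organs. PRRX1 and PRRX2 are homeodomain factors of limb and craniofacial mesenchyme, TBX15 is a T-box factor of the skeleton and skin, and SNAI2 is a zinc finger repressor of epithelial genes. THY1 (CD90) is a surface glycoprotein used to sort fibroblasts. PDGFRA and PDGFRB are receptor tyrosine kinases for platelet-derived growth factors, which drive the growth of mesenchymal cells.

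The following stretches of the mm9 genome are shown because 3 of the genes that differed past 1.5-fold between genotypes (Twist2, Thy1 and Pdgfra), the only H3K9me3 peak at a start of these genes and the highest KAP1 peak near Twist1 lie at or beside them. Each is written from 5′ to 3′ on the strand of its gene, and capitals mark CpG dinucleotides. The Twist2 stretch is the 250 bases before the transcript start (chr1:93697788-93698037, plus strand), which lay under an H3K27ac peak in both genotypes. It held 23 CpG, with an observed over expected CpG ratio of 0.788. The Thy1 stretch (chr9:43851217-43851466, plus strand) also lay under a peak in both genotypes and held 9 CpG. The Pdgfra stretch precedes the first of 2 starts (chr5:75548066-75548315, plus strand), held 2 CpG and lay outside the peaks of both genotypes. The Tcf21 stretch is the middle of a WT H3K9me3 peak in the first exon (chr10:22539373-22539672, minus strand). The last stretch is the middle of a KAP1 peak of Hepa 1.6 cells between genes, downstream of Twist1 (chr12:34653355-34653654, plus strand).
Twist2: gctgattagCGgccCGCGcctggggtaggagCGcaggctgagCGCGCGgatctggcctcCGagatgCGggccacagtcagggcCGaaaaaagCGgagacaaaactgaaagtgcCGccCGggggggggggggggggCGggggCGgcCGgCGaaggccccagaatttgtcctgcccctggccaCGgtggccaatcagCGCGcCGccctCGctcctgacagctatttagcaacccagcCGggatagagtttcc
Thy1: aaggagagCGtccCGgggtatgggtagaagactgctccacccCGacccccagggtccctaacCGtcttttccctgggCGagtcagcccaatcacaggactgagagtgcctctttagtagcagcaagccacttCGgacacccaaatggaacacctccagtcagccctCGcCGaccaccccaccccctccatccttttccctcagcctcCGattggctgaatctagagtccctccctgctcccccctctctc
Pdgfra: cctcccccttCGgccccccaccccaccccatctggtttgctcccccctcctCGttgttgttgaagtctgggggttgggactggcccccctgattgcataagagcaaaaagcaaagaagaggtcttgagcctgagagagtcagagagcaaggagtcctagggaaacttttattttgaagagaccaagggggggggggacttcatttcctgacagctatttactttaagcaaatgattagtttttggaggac
Tcf21: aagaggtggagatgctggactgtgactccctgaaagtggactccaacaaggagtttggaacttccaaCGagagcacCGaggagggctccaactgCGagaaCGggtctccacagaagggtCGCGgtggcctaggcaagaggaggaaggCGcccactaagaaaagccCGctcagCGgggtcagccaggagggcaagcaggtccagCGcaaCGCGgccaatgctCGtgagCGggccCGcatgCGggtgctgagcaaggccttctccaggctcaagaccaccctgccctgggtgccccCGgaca
Twist1 downstream KAP1 site: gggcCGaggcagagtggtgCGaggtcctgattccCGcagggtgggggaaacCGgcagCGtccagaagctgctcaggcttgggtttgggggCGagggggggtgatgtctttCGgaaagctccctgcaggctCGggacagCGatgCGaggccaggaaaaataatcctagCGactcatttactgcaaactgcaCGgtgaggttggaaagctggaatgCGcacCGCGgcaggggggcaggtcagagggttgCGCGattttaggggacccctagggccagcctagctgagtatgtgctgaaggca

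Of the 10 stretches of 250 bases before the first start of each gene, 2 had a CpG ratio above the median of 0.496 over 22362 protein-coding genes, those of Twist2 and Twist1 (0.788 and 0.74). The remaining ratios ranged from 0.118 at Pdgfra to 0.476 at Tbx15. Over all genes the median was 0.723 with and 0.222 without a WT H3K27ac peak at the promoter. That split takes a peak within 1 kb of any start, whereas the stretch precedes the first start only. At Prrx2 and Pdgfra, which count as having a peak, the stretch itself lay outside the peaks of both genotypes. The E-box, CANNTG on either strand, was found in 5 of the 10 stretches and in 63.6% of all. The form CAGGTG, which is contained in the E-box, was found in 0 of 10 and in 17.0% of all. TATAAA was found in the Twist1 stretch alone and in 12.3% of all, and GGGCGG in 5 of 10 and in 39.6% of all, all on both strands. These are matches of letters in a window, and binding was not measured by them.

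In both genotypes, 9 of the 10 genes carried an H3K27ac peak at the promoter, that is within 1 kb of any annotated start, and the exception was Tcf21. Over all protein-coding genes, 54.6% in WT and 53.3% in Kap1 KO had such a peak. None of the 10 genes had a promoter peak in 1 genotype only, against 3.97% of all genes. The windows together measured 775.0 kb and were longer than those of most genes, with a median of 82.9 kb against 55.4 kb. In WT they held 32 H3K27ac peaks, of which 11 lay at the gene's own promoter, 4 at the promoter of another gene and 17 over 1 kb from any start, here called distal. In Kap1 KO they held 34 peaks, with 10, 3 and 21 in these classes. The peaks covered 104.0 kb in WT and 97.1 kb in Kap1 KO, a ratio of 0.937, and single genes lay on both sides of it.

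**Figure D1:**
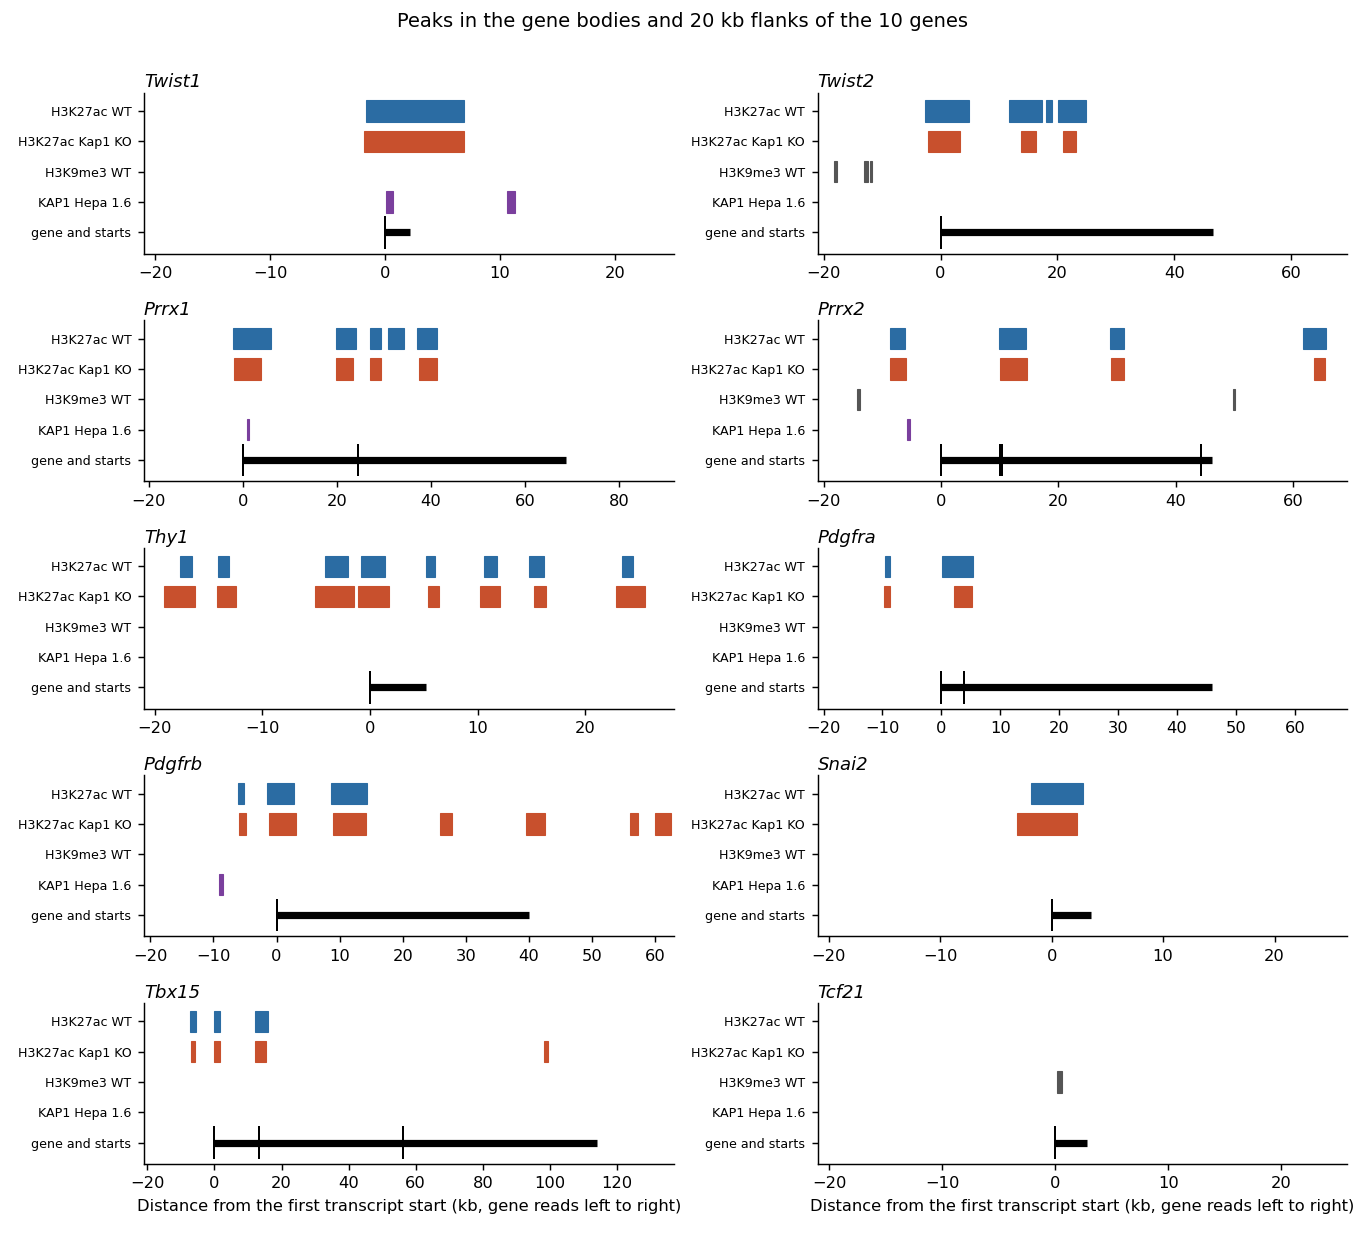
Peaks in the windows of the 10 genes by distance from the first transcript start in kb, drawn in the direction of the gene, with the gene as a black bar and its starts as ticks. H3K27ac peaks of WT and Kap1 KO lie in the same places at most genes, Pdgfrb has 4 peaks in Kap1 KO only, and Tcf21 has an H3K9me3 peak and no H3K27ac peak. H3K9me3 of Kap1 KO has no row because it had 0 peaks in these windows.

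Taking the factors first, Twist1 (chr12:34642536-34644682) had 1 H3K27ac peak in each genotype, and these were the widest of all the windows. The WT peak was 8516 bp and the Kap1 KO peak 8695 bp wide, both at the ceiling of the score, and both ran from upstream of the start to well past the end of the gene. Twist1 was thus marked over the same bases in both genotypes, with a ratio of 1.02.

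Twist2 (chr1:93698038-93744605) had the lowest ratio of the 9 genes, 18.882 kb in WT against 10.361 kb in Kap1 KO (0.549-fold). Its promoter peak was at the ceiling in both and measured 7551 bp in WT and 5543 bp in Kap1 KO. The difference was larger in an intron. There, a WT peak of 5532 bp at the ceiling, from 11.76 kb after the start, was matched in Kap1 KO by a peak of 2700 bp with a score of 1100.23. A second WT peak of 4806 bp at the ceiling was matched by one of 2118 bp with a score of 1005.87. Between them lay a WT only peak, one that shares no base with a Kap1 KO peak, of 993 bp with a score of 73.12 (chr1:93716063-93717055). Of the genes compared that had cover in WT, 7.6% had a lower ratio than Twist2.

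Prrx1 (chr1:165175247-165243841, minus strand) was covered over 22.608 kb in WT and 15.516 kb in Kap1 KO (0.686-fold). The peak over its 4 upstream starts was at the ceiling in both genotypes, with 8126 bp in WT and 5761 bp in Kap1 KO. A further start within the gene, at 165219355, lay 319 bp from a WT peak and 1155 bp from the matching Kap1 KO peak, so that with the 1 kb limit it counted as marked in WT alone. That pair went from 4424 bp and a score of 1731.67 in WT to 3466 bp and 2756.06 in Kap1 KO, a narrower peak with a higher score. The highest WT only peak of all windows was also found here, 3320 bp with a score of 1205.07 (chr1:165209635-165212954), over exons of Prrx1 and of Gm20471, a gene annotated within it. Prrx1 was therefore lower in covered bases, its main promoter peak included. The score of that peak was at the ceiling in both lists and could not be compared.

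Prrx2 (chr2:30690492-30736761) was covered over 13.508 kb in WT and 11.516 kb in Kap1 KO (0.853-fold). The first annotated start had no peak within 1 kb, the nearest being 6094 bp away in WT and 5932 bp in Kap1 KO. The promoter peak lay over the next 2 starts, with 4692 bp and a score of 2989.1 in WT and 4596 bp and 2787.95 in Kap1 KO. In WT 71.3% of the list was at or below its score, and in Kap1 KO 76.1%. These ranks cannot be compared, because more WT than Kap1 KO peaks were tied at the ceiling above it. An intron peak was at the ceiling in WT (2388 bp) and had a score of 2387.18 in Kap1 KO (2313 bp). The WT only peak of this window (chr2:30752165-30754068, score 204.05) lay over an exon of Ptges, the neighbouring prostaglandin E synthase gene.

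Snai2 (chr16:14705945-14709488) had 1 peak in each genotype, at its promoter and at the ceiling in both. It was 4653 bp wide in WT and 5380 bp in Kap1 KO (1.16-fold), and within the gene body alone the ratio was 0.806. Tbx15 (chr3:99044304-99158182) had nearly equal cover, 7.313 kb in WT and 7.311 kb in Kap1 KO, but a ratio of 0.596 among the 50% of peaks with the highest scores. Its first 2 starts were marked in both genotypes and its last start in neither, with the nearest peak 40281 bp away in WT and 40624 bp in Kap1 KO. At the first start the WT peak scored 734.08 and the Kap1 KO peak 317.34, with widths of 1854 bp and 1688 bp. At the second start both peaks were at the ceiling, with 3673 bp and 3296 bp. A Kap1 KO only peak of 1017 bp with a score of 101.88 lay in an intron (chr3:99142663-99143679).

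Tcf21 (chr10:22537085-22539934, minus strand) had no H3K27ac peak in its window in either genotype, and the nearest lay 64416 bp from the window in WT and 64741 bp in Kap1 KO. Such an absence was common, since 5330 of all protein-coding genes (23.8%) had no H3K27ac peak in either genotype. Whether signal under the threshold of the peak caller was present cannot be seen from the lists.

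Thy1 (chr9:43851467-43856662) showed the highest ratio, with 10.895 kb in WT and 17.36 kb in Kap1 KO (1.59-fold). The number of peaks was the same, 8 in each genotype, and every WT peak overlapped a Kap1 KO peak. The promoter peak was 2244 bp with a score of 774.02 in WT and 2823 bp with a score of 1255.68 in Kap1 KO. The farthest upstream peak, which lay 16531 bp before the start in WT, went from 1161 bp and a score of 106.59 to 2903 bp and 3102.15, at the ceiling. The next peaks towards the promoter measured 1022 bp and 2057 bp in WT and 1778 bp and 3587 bp in Kap1 KO. Of the 8 pairs, 7 were wider in Kap1 KO and 1 was narrower (1321 bp against 1076 bp). The pair at the end of the window, over Rnf26 and Usp2, went from 995 bp to 2669 bp, and Thy1 thus differed in the width and score of peaks that were present in both genotypes.

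Pdgfra (chr5:75548316-75594229) had 2 peaks in each genotype, covering 6.237 kb in WT and 4.131 kb in Kap1 KO (0.662-fold). The WT promoter peak was 5293 bp wide, at the ceiling, and began 23 bp after the first start. The Kap1 KO peak was 3156 bp wide with a score of 1141.59 and began 2075 bp after that start, so that it lay over the second start (75552191) and not within 1 kb of the first. An upstream peak was alike in both, 944 bp with a score of 67.65 in WT and 975 bp with 70.29 in Kap1 KO.

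Pdgfrb lies on chromosome 18 (61204804 to 61244715), and its promoter peak was at the ceiling in both genotypes, with 4263 bp in WT and 4299 bp in Kap1 KO. An intron peak was also alike, 5784 bp and 5302 bp with scores of 1789.55 and 1819.99. The window was covered over 11.013 kb in WT and 16.851 kb in Kap1 KO (1.53-fold), and Kap1 KO had 4 further peaks of its own. The highest of them, with a score of 1207.33 and 3005 bp, lay over an exon at the end of the gene and ran beyond it (61244330 to 61247334). The others had scores of 365.57 in Pdgfrb (61230721 to 61232560), 229.28 over an exon of Csf1r (61264692 to 61267246) and 67.73 between both genes (61260721 to 61262041). Csf1r, the receptor of a macrophage growth factor and the next gene downstream, had 0 H3K27ac peaks in its window in WT and 5 in Kap1 KO. The peak over the Csf1r exon starts just before the end of the Pdgfrb window (61264715) and adds little to its cover. The windows of Pdgfrb and Csf1r overlap, so that this peak and the one between both genes count in both. The rest of the chromosome differed in the same direction. Chromosome 18 held 829 WT and 1240 Kap1 KO peaks, a ratio of covered bases of 1.51, the highest of all chromosomes, and 42.6% of its Kap1 KO peaks were Kap1 KO only. Over the 1 Mb on both sides of the window the ratio was 1.47. Divided by the ratio of its chromosome, Pdgfrb came to 1.01, and a difference at Pdgfrb itself cannot be told apart from that of the chromosome.

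**Figure D2:**
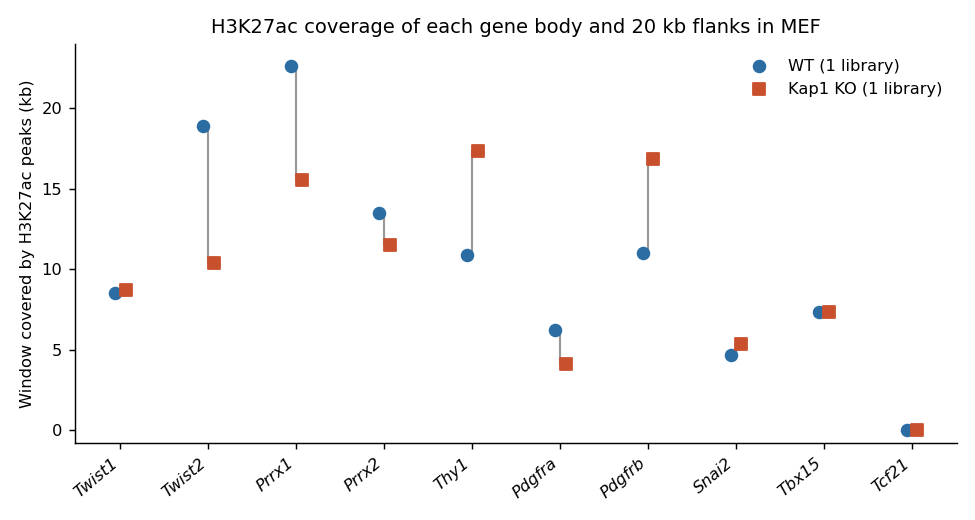
Bases under H3K27ac peaks in the window of each gene in kb, with 1 point per library and no error bar because each genotype had 1 library. Twist2, Prrx1, Prrx2 and Pdgfra were lower and Thy1, Pdgfrb and Snai2 higher in Kap1 KO (Snai2 lower, at 0.806, without flanks), Twist1 and Tbx15 were nearly equal, and Tcf21 was at 0 in both.

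Set against all genes with at least 1 kb covered in either genotype, 2 of the 9 genes that could be compared were at least 1.5-fold higher in Kap1 KO (Thy1 and Pdgfrb), where 11.1% of the 16598 genes were. In the other direction 2 of 9 were at least 1.5-fold lower (Twist2 and Pdgfra), where 13.0% of genes were. Pdgfra, at 0.662, lay just inside and Prrx1, at 0.686, just outside this limit. The median ratio over the 9 genes was 1.0, that of Tbx15, and that over all genes with cover in WT was 0.944. With so few genes, 2 in each direction is not set apart from the background.

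**Figure D3:**
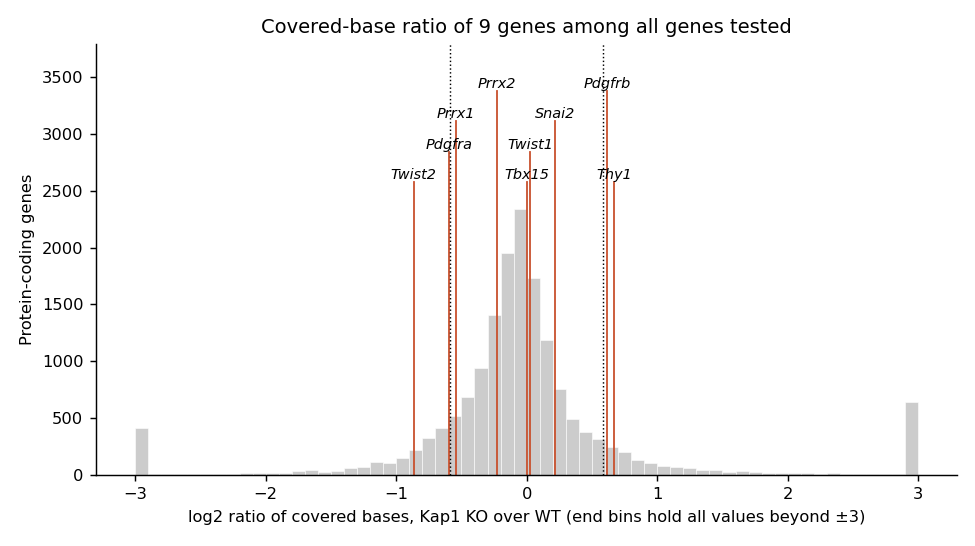
Number of protein-coding genes by the log2 ratio of bases under H3K27ac peaks, Kap1 KO over WT, with the 9 genes of the fibroblast lineage as red lines and 1.5-fold in either direction as dotted lines. Twist2 and Pdgfra lie beyond the lower line and Pdgfrb and Thy1 beyond the upper, and the end bins hold all values beyond 3 in either direction.

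The chromosome of each gene gave a second frame. For the 8 genes other than Pdgfrb the ratio of the whole chromosome ranged from 0.91 to 1.09. Thy1 stood at 1.59 where chromosome 9 had 1.02 and the 1 Mb on both sides of the window had 0.943. Twist2 stood at 0.549 and Prrx1 at 0.686 where chromosome 1 had 0.91, and their surroundings had 0.905 and 0.964. Pdgfra stood at 0.662 where chromosome 5 had 1.03 and its surroundings 0.768, so that its neighbourhood was lower as well.

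**Figure D4:**
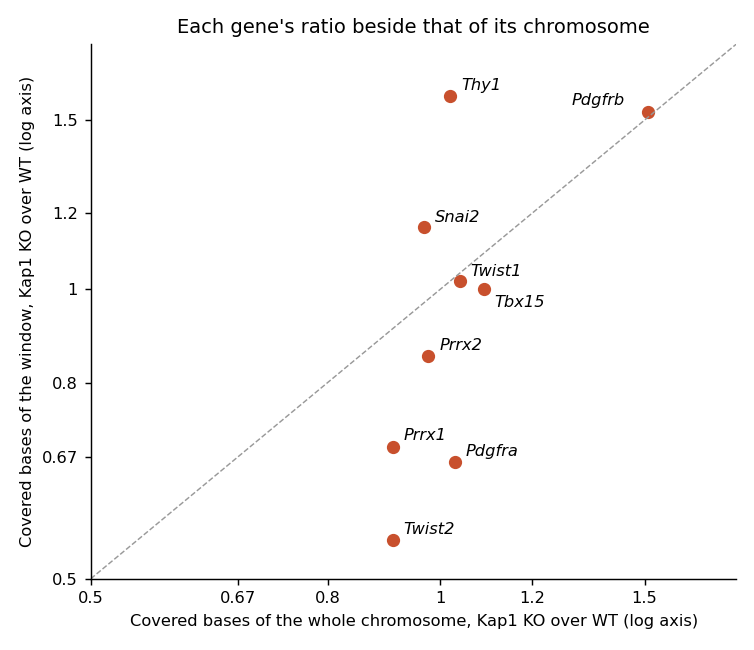
Ratio of bases under H3K27ac peaks, Kap1 KO over WT, in the window of each gene against that of its whole chromosome, on log axes, with a dashed line where both are equal. Pdgfrb lies on the line at 1.53 and 1.51, Thy1 lies above it, and Twist2, Prrx1 and Pdgfra lie below it.

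Peaks of 1 genotype only were set beside their share in the whole lists. In WT they were 3 of 32 peaks (9.38%, exact Clopper-Pearson 95% interval 1.98% to 25.0%), where 22.8% of all WT peaks were WT only. In Kap1 KO they were 5 of 34 (14.7%, interval 4.95% to 31.1%), where 22.8% of all Kap1 KO peaks were of that kind. Of these 5, 4 lay in the window of Pdgfrb, 1 of them over an exon of Csf1r. Without Pdgfrb, 1 Kap1 KO only peak was left. Both intervals hold 22.8%, so neither share is set apart from that of its whole list. The whole lists were not limited to peaks near genes, whereas the windows surround genes, so that the sets are not matched. The intervals cover counting of peaks within a library and not variation between libraries. They also treat peaks as independent, although 4 of the 5 Kap1 KO only peaks lay in 1 window.

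Widths were compared in pairs of peaks. Peaks that overlapped 1 to 1 formed 29 pairs, of which 15 were wider in WT and 14 in Kap1 KO, with a median ratio of 0.98. At the genes' own promoters 7 of 11 pairs were wider in WT (median ratio 0.91), and elsewhere in the windows 8 of 18 were (median 1.02). Over all 26138 pairs of the genome 59.5% were wider in WT, with a median of 0.962. Pairs at least 1.5-fold narrower in Kap1 KO numbered 3 in the windows, both intron peaks of Twist2 and the promoter of Pdgfra, and made up 8.72% of all pairs. Pairs at least 1.5-fold wider numbered 5, all of them in the window of Thy1, and made up 6.52% of all pairs. Own promoter peaks had a median width of 4653 bp in WT and 4447.5 bp in Kap1 KO. They were at the ceiling in 7 of 11 cases in WT and in 6 of 10 in Kap1 KO.

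**Figure D5:**
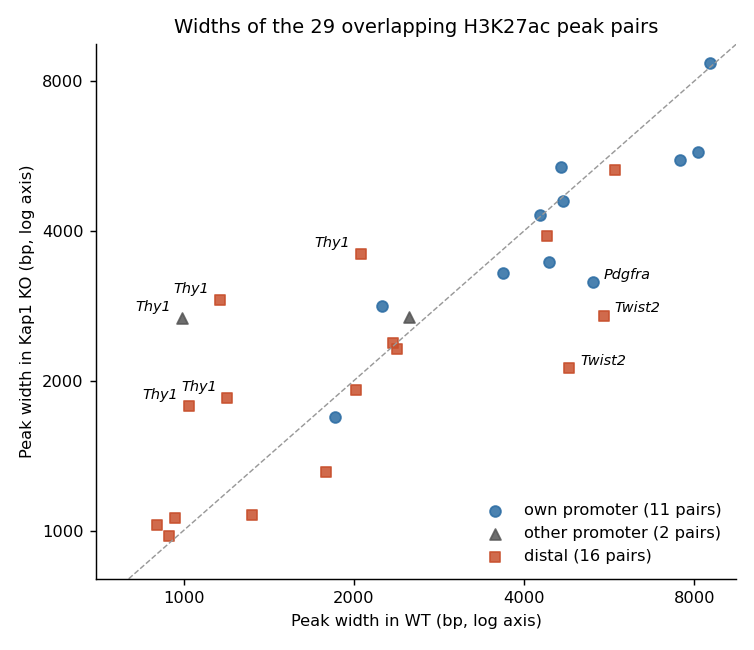
Widths in bp of the 29 pairs of overlapping H3K27ac peaks in WT and Kap1 KO on log axes, by their place at the gene's own promoter, at another promoter or distal, with a dashed line of equal width. The named pairs differ at least 1.5-fold, with 5 pairs of Thy1 above the line and 2 of Twist2 and 1 of Pdgfra below it.

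H3K9me3 peaks were found in the windows of 3 of the 10 genes in WT, where 27.4% of all genes had one, and of 0 of 10 in Kap1 KO, where 4.44% of all genes had one. The 6 WT peaks were 350 bp to 667 bp wide. Twist2 had 3, all upstream of the gene between other genes, with scores of 148.25 (chr1:93684973-93685603), 100.04 (chr1:93679804-93680349) and 56.26 (chr1:93686025-93686374). Prrx2 had 2 in its flanks, with scores of 122.25 over an exon of Mettl11a (chr2:30676111-30676777) and 58.63 (chr2:30740213-30740576). The sixth was the Tcf21 peak shown above, of 450 bp with a score of 77.7 (chr10:22539298-22539747), 187 bp after the start and inside the first exon. A WT H3K9me3 peak at a promoter was found at 2.65% of all genes, and together with an absence of H3K27ac peaks in both genotypes at 162 genes (0.724%), Tcf21 among them. At Tcf21 the H3K9me3 peak was thus called in WT only, with no H3K27ac peak called in Kap1 KO. Its score lies under the stated cutoff of 80, and it was absent with a score of at least 80, among the 50% of peaks with the highest scores and with equal numbers of peaks from both genotypes. At Twist2 the window with 3 H3K9me3 peaks in WT and 0 in Kap1 KO had fewer bases under H3K27ac in Kap1 KO.

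KAP1 peaks of Hepa 1.6 cells lay in the windows of 4 of the 10 genes, where 43.8% of all genes had one, and at the promoters of 2 of 10, where 18.9% had one. The promoter peaks were those of Twist1, of 575 bp with a score of 118, from 101 bp after the start (chr12:34642637-34643211), and of Prrx1, of 527 bp with a score of 83 (chr1:165242415-165242941). The peak downstream of Twist1, whose middle is printed above, had a score of 196 (chr12:34653188-34653821). In the window of Prrx2 a peak with a score of 93 lay over Asb6. The highest score, 336, belonged to a peak over Cdx1, a homeobox gene, in the window of Pdgfrb. None of the 5 was an entry of the SETDB1 list of the same cells, and none lay in a window that held WT H3K9me3 except that of Prrx2. Hepatoma cells are no fibroblasts, and these peaks do not show where KAP1 lies in MEFs.

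Other genes of the same cell type were examined as lists, without a test. Over all genes compared, 11.1% were at least 1.5-fold higher and 13.0% lower in Kap1 KO. Of 20 further mesenchymal transcription factors, 16 had a promoter peak in WT and 15 in Kap1 KO. Of the 16 with enough cover, 0 were at least 1.5-fold higher and 3 lower in Kap1 KO, with a median ratio of 0.956. These were Foxd1, a forkhead factor of kidney stroma (3.904 kb against 1.559 kb, with the promoter peak in WT only), Msx2, a homeobox factor of the skull (0.557-fold), and Tcf12, an E protein (0.649-fold). Foxd1 and Msx2 both lie on chromosome 13, whose ratio was 0.89. Snai1, Zeb1 and Zeb2, which repress epithelial genes like Snai2, had ratios of 1.02, 1.18 and 0.953, with Zeb1 on chromosome 18.

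Of 18 structural and surface genes of fibroblasts, 13 had a promoter peak in WT and 12 in Kap1 KO, and the median ratio of the 16 compared was 0.949. Dcn, which encodes the matrix proteoglycan decorin, had 4 peaks and 5.429 kb in WT against 1 peak and 0.933 kb in Kap1 KO, and its promoter peak was found in WT only. Nt5e, the surface enzyme CD73, had 1.868 kb in WT and 4.29 kb in Kap1 KO. Vim and Fn1, for vimentin and fibronectin, had ratios of 1.08 and 1.42. Acta2, Cd44, Cdh11 and Cdh2 had lower ones of 0.673, 0.721, 0.782 and 0.829. Of the 16 compared, 1 was at least 1.5-fold higher (Nt5e) and 1 lower (Dcn). Lum and Fap had no H3K27ac peak in either genotype. Nt5e, Postn and Tagln had peaks, but none at the promoter.

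Among 10 ligands and signalling genes of the PDGF receptors, 1 was at least 1.5-fold higher, 1 lower, and the median ratio was 1.03. Pdgfd, a ligand of PDGFRB, had 1 peak of 1.004 kb in WT and 8 peaks over 12.741 kb in Kap1 KO (12.7-fold), the largest ratio of that list. Pdgfrl, a receptor-like gene, had 1.243 kb in WT and no peak in Kap1 KO. The ligands Pdgfa, Pdgfb and Pdgfc had ratios of 0.918, 1.06 and 1.0.

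Of 9 partners and inhibitors of TWIST proteins, 7 had a promoter peak in both genotypes, and of the 7 compared 0 were at least 1.5-fold higher and 3 lower, with a median of 0.708. The lower ones were Tcf3 (0.622-fold) and Tcf12 (0.649-fold), which encode E proteins, and Id3 (0.633-fold), which encodes an inhibitor of them. The chromosomes of Tcf3, Tcf12 and Id3 had ratios of 0.89, 1.02 and 0.796, the last being the lowest of all chromosomes. The remaining E protein gene, Tcf4, had 1.2 and lies on chromosome 18, whose ratio was 1.51. Tcf12 and Tcf4 also belong to the mesenchymal transcription factors above, so that the counts of both lists are not independent.

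Markers of other cell types that a culture could hold were read in the same way. Promoter peaks were found at 1 of 8 epithelial genes in WT (Krt8) and 0 in Kap1 KO, at 1 and 2 of 9 hepatocyte genes, at 1 and 2 of 7 haematopoietic genes, at 2 and 2 of 6 endothelial genes and at 0 and 1 of 6 pluripotency genes. Those with a promoter peak in Kap1 KO only were Apob, Csf1r and Esrrb. Csf1r lies beside Pdgfrb on chromosome 18, whose ratio was 1.51, and Apob and Esrrb on chromosome 12, at 1.04. The windows of the epithelial genes were covered over 71.6 kb in WT and 60.5 kb in Kap1 KO. Those of the other lists were covered over 17.4 kb and 22.5 kb (hepatocyte), 36.2 kb and 41.7 kb (haematopoietic), 18.4 kb and 21.1 kb (endothelial) and 24.8 kb and 28.0 kb (pluripotency). In each of these other lists, 1 gene gained more bases than its list did, so that the rest of the list was lower in Kap1 KO. These genes were Apob (4.536 kb and 14.504 kb), Csf1r (0 and 8.332 kb), Cdh5 (1.401 kb and 8.093 kb) and Esrrb (3.227 kb and 11.837 kb). The median ratios of the genes compared that had cover in WT were 0.635, 0.895, 0.84 and 0.91 in the same order. Krt8, Krt18 and Ovol1 were lower in Kap1 KO (0.586-, 0.652- and 0.659-fold), and Grhl2, which encodes an epithelial factor, had 3 peaks in Kap1 KO and 0 in WT. Apob, Esrrb and the endothelial cadherin gene Cdh5 were higher in Kap1 KO (3.2-, 3.67- and 5.78-fold), as was the myeloid integrin gene Itgam (3.09-fold). In the same lists Trf, Emcn, Ptprc and Sox2 were lower (0.444-, 0.524-, 0.572- and 0.557-fold), and Hnf4a and Tie1 had 1.283 kb and 1.034 kb in WT and no peak in Kap1 KO. Past 1.5-fold, 1 hepatocyte gene was higher and 2 lower, as for the endothelial genes, 2 haematopoietic genes were higher and 1 lower, and 1 pluripotency gene was higher and 1 lower. Epcam, Alb, Cd3e and Tek, and with them Ttr, Apoa1, Afp, Serpina1a and Zfp42, had no H3K27ac peak in either genotype. Other genes of the same lists did, and Foxa3, Cd68, Pecam1 and Kdr had a promoter peak in both genotypes. Cdh1, with 10 peaks in WT and 8 in Kap1 KO, and Sfpi1, with 6 and 5, had peaks away from their promoters. All 8 housekeeping genes had a promoter peak in both genotypes, and 7 of them lay within 1.5-fold, the other being Hprt on chromosome X, at 1.87 where that chromosome had 1.22. The part of other cell types in the differences given above was not tested.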

How the data were processed

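H3K27ac and H3K9me3 ChIP-seq of WT and Kap1 KO MEFs and KAP1 and SETDB1 ChIP-seq of Hepa 1.6 cells were used, with 1 library each. The authors mapped reads to mm9 with Bowtie2 (2.2.1, sensitive-local mode), called peaks with MACS (1.4) against total input and deposited the position and score of each peak. A cutoff score of 80 is stated, whereas the MEF lists reach down to about 50. All deposited peaks were used. Depth is unknown, and regions outside peaks may carry signal that fell below the threshold. Other samples of the series were not analysed here.

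Genes, starts and sequences were taken from GENCODE vM1 and the NCBIM37 (mm9) genome, and starts are printed counting from 1. A window was the gene body with 20 kb on both sides, and a promoter 1 kb on both sides of any annotated start. Peaks overlapped when they shared 1 bp. Genes were compared when at least 1 kb was covered in either genotype, and 1.5-fold was the limit. No test was run between single libraries. All 10 genes were described with their promoter peaks, the 3 highest peaks of 1 genotype only, the widest peaks and each H3K9me3 and KAP1 peak. Of the other lists, up to 4 genes each that differed in promoter peak or past 1.5-fold were named. Snai1, Zeb1, Zeb2, Vim, Fn1, Acta2, Cd44, Cdh11, Cdh2, Lum, Fap, Postn, Tagln, Tcf4 and the remaining PDGF ligands were added after their values were seen. So were Epcam, Alb, Cd3e, Tek, the other markers without peaks, Cdh1, Sfpi1 and the markers with a promoter peak in both genotypes. The genes and lists were chosen with earlier results of these data known.

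The alternatives were a score of at least 80, the 50% of peaks with the highest scores, equal numbers of peaks, promoters of 500 bp or 2.5 kb, flanks of 0 or 50 kb, and an overlap of 50% or a gap of 1 kb for shared peaks. Division by the ratio of the chromosome and removal of Pdgfrb were added after seeing the data. Sequences were read with pysam from the genome, which was indexed with samtools 1.23.1. Intervals were computed in Python 3.11.15 (pandas 2.3.3, numpy 2.4.6, scipy 1.17.1), and plots were drawn with matplotlib 3.10.9. The interval code was tested on simulated data.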

Additional observations from a re-analysis of the deposited data

How the results depend on the processing

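The count of 9 genes with a promoter peak in both genotypes held for a score of at least 80, for the 50% of peaks with the highest scores, for equal numbers of peaks and for promoters of 500 bp and 2.5 kb. The ratio of bases over all windows stayed between 0.788 (no flank) and 0.97 (50 kb flank). Twist2 stayed between 0.506 and 0.603 and Pdgfra between 0.596 and 0.662. Thy1 ranged from 1.25 to 5.18 and Pdgfrb from 1.01 to 2.07. Snai2 turned to 0.806 with no flank. Genes at least 1.5-fold lower numbered 3 in place of 2 among the highest 50% (with Tbx15 at 0.596) and with no flank (with Prrx1 at 0.666).

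Genes at least 1.5-fold higher in Kap1 KO numbered 1 in place of 2 with a score of at least 80 (Pdgfrb at 1.41), among the 50% of highest peaks (Pdgfrb at 1.25), with a 50 kb flank (Thy1 at 1.36), after division by the ratio of the chromosome (Pdgfrb at 1.01) and without Pdgfrb, and 0 with no flank, where Thy1 and Pdgfrb both had 1.25. With fewer peaks or shorter windows, counts were lower by construction. The highest 50% left 20 WT and 22 Kap1 KO H3K27ac peaks, and no flank left 20 in each, with 3 Kap1 KO only peaks. A 50 kb flank gave 6 WT only and 11 Kap1 KO only peaks. Without Pdgfrb 1 Kap1 KO only peak remained. WT H3K9me3 peaks numbered 3 with a score of at least 80 or among the highest 50%, 2 with equal numbers of peaks, 1 with no flank and 11 with a 50 kb flank, against 0 in Kap1 KO in each case, and the Tcf21 peak was not among them in the first 3 of these settings. KAP1 peaks numbered 2 among the highest 50%, 2 with no flank and 10 with a 50 kb flank. No paired analysis was possible because each condition had 1 library and the results come from no test.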
